A study of Mus musculus with 17 samples.

Results

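The interleukin-1 family transcripts described here are 6 genes, chosen by name: the agonists Il1a, Il1b and Il18, the secreted antagonists Il1rn and Il18bp, and the shared receptor chain Il1rap. All 6 were found among the 55401 gene identifiers of the count table. They were followed through 17 RNA-seq libraries of mouse primary bone marrow-derived macrophages, which are macrophages grown from marrow in culture. Cells of the C57BL/6J strain received medium conditioned by B16F10 cells (a mouse melanoma line) with added KCl (3 libraries), the same medium with added NaCl (2 libraries), or the medium alone (3 libraries). A control group of that strain (3 libraries) was also sequenced, with no statement in the labels of what its cells were given or for how long. Macrophages with the genotype Lyz2-Cre-Kcnj2f/f (3 libraries) or Kcnj2f/f (3 libraries) received conditioned medium with KCl labelled isotonic. Kcnj2 encodes an inward-rectifying potassium channel, and Lyz2-Cre is a Cre recombinase expressed from the lysozyme gene of myeloid cells. These groups are called KCl, NaCl, conditioned medium, control, knockout and floxed below. Treatment lasted 6 h and the final salt concentration was 40 mM, per the labels, whose protocol names C57BL/6J cells and does not say how the isotonic medium was made. No library combines the C57BL/6J strain with isotonic KCl, and no floxed or knockout library lacks the salt.

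Interleukin-1 alpha and interleukin-1 beta bind the receptor IL1R1, which then recruits the accessory chain encoded by Il1rap and signals through MyD88, IRAK kinases and NF-kB. Il1rn encodes the interleukin-1 receptor antagonist, which occupies IL1R1 without recruiting the accessory chain. Interleukin-18 uses its own receptor pair and is held in check by the soluble binding protein encoded by Il18bp. In macrophages, Il1a and Il1b transcripts are known to be induced by inflammatory stimuli, whereas the release of mature interleukin-1 beta and interleukin-18 also needs cleavage by caspase-1 in an inflammasome, a step whose best known trigger is loss of potassium from the cell. RNA counts do not report on that step.

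In GENCODE M21 on GRCm38, Il1a (chr2:129299610-129309972) and Il1b (chr2:129364570-129371139) lie on the minus strand, 54597 bases apart with 0 protein-coding genes between them. Il1rn lies on the plus strand of the same chromosome (chr2:24336853-24351494). Il18 lies on chr9:50554827-50581840 (plus strand), Il18bp on chr7:102014885-102018690 (minus strand) and Il1rap on chr16:26581704-26730117 (plus strand). The genome build behind the counts is not given in the sources used here, so these positions are those of the annotation.

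The 250 bases before the annotated start are shown for Il1a and Il1b, whose levels moved most among the 6 genes, for Il18, which fell with both salts as they did, and for Il1rn, which did not pass the test with either salt. The sequences are from RefSeq on GRCm38.p6, written 5′ to 3′ on the gene's strand, and capitals mark matches to the motifs named after them.
Il1a, chr2:129309973-129310222, minus strand: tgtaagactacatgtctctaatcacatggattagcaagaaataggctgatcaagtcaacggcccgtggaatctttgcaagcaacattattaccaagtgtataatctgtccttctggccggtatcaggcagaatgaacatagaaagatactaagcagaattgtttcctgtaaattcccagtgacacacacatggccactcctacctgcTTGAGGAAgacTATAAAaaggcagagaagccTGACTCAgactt
Il1b, chr2:129371140-129371389, minus strand: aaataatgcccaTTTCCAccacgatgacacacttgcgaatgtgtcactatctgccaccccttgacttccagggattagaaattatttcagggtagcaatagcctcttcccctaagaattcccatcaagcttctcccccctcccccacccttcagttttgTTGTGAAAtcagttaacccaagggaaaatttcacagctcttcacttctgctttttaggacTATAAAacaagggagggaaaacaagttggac
Il18, chr9:50554450-50554699, plus strand: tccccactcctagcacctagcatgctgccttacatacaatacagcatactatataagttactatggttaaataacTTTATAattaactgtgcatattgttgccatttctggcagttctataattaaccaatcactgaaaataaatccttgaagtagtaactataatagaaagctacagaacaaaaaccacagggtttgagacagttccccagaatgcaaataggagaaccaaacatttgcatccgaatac
Il1rn, first of 3 annotated start sites, chr2:24336610-24336859, plus strand: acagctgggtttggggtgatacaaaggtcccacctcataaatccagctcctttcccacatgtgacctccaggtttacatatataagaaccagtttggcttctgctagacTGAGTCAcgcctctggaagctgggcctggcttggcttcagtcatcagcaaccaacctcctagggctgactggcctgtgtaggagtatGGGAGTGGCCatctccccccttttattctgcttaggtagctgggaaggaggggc

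Motifs were searched on both strands of these 250 bases as NF-kB (GGGNNNNNCC), AP-1 (TGANTCA), C/EBP (TTNNGNAA), ISRE (TTTCNNTTTC), the NFAT5 core (TGGAAA), CRE (TGACGTCA) and the TATA box (TATAAA). Il1a held a C/EBP match, a TATA box and an AP-1 match, all within 43 bases of the start. Il1b held an NFAT5 core on the opposite strand, a C/EBP match and a TATA box whose last base lay 26 bases before the start. The first Il1rn start site held an AP-1 and an NF-kB match, and Il18 held a TATA box on the opposite strand 175 bases before the start. A TATA box was found in 12.4% of the 32851 promoters of the table, a C/EBP match in 36.8%, an NF-kB match in 45.8%, the NFAT5 core in 18.6% and an AP-1 match in 6.75%. The commoner motifs of this set are thus frequent by their letters alone, and a match is not a measured binding site. No match was seen for CRE or ISRE in the window of any of the 6 genes, and NF-kB letters were absent from the Il1a and Il1b windows, which says nothing of sites elsewhere.

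**Figure D1:**
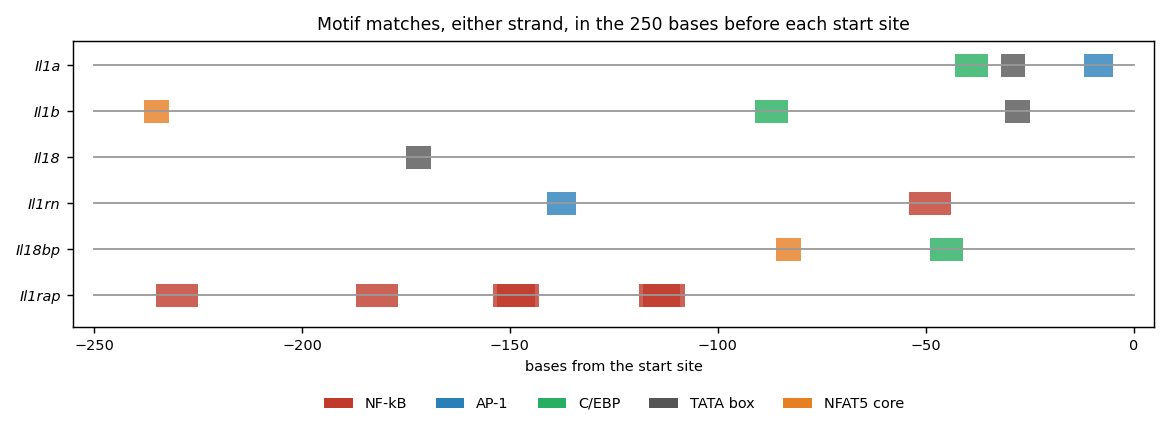
Position of motif matches in the 250 bases before each annotated start site of the 6 genes, in bases from the start (horizontal axis), with 1 row per gene (for Il1rn the first start site) and 1 colour per motif. Il1a and Il1b each have a TATA box close to the start, and NF-kB matches lie before Il1rn and Il1rap, where some overlap one another.

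Library totals ran from 13503869 to 19391623 counts. Levels are in CPM, counts scaled to the library total, after adjustment by trimmed mean of M values (TMM) over the 17 libraries, given as mean ± SD over the libraries of a group. Kcnj2 checked the labels: it had 19.7, 24.4 and 29.4 CPM in the knockout libraries, against 173, 139 and 147 CPM in the floxed libraries. Macrophage markers were abundant in every library (12 of 12 found; summed 15196 to 16181 CPM in knockout and 27964 to 32035 CPM in the other groups, with Lyz2, the gene that carries the Cre, among the 12). Melanoma markers summed to at most 1.23 CPM, with Tyr and Dct at 0 in every library, and markers of T and NK cells and of mast cells and basophils summed to at most 0.891 and 8.95 CPM. The 4 B cell markers summed to 38.4 to 44.1 CPM in knockout and to 20.2 to 37.4 CPM in the other groups. Replicates of the KCl, floxed and knockout groups differed more among themselves (chi-square per degree of freedom of their counts 5.59 to 133 per pair) than those of the other groups (2.05 to 5.47).

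**Figure D2:**
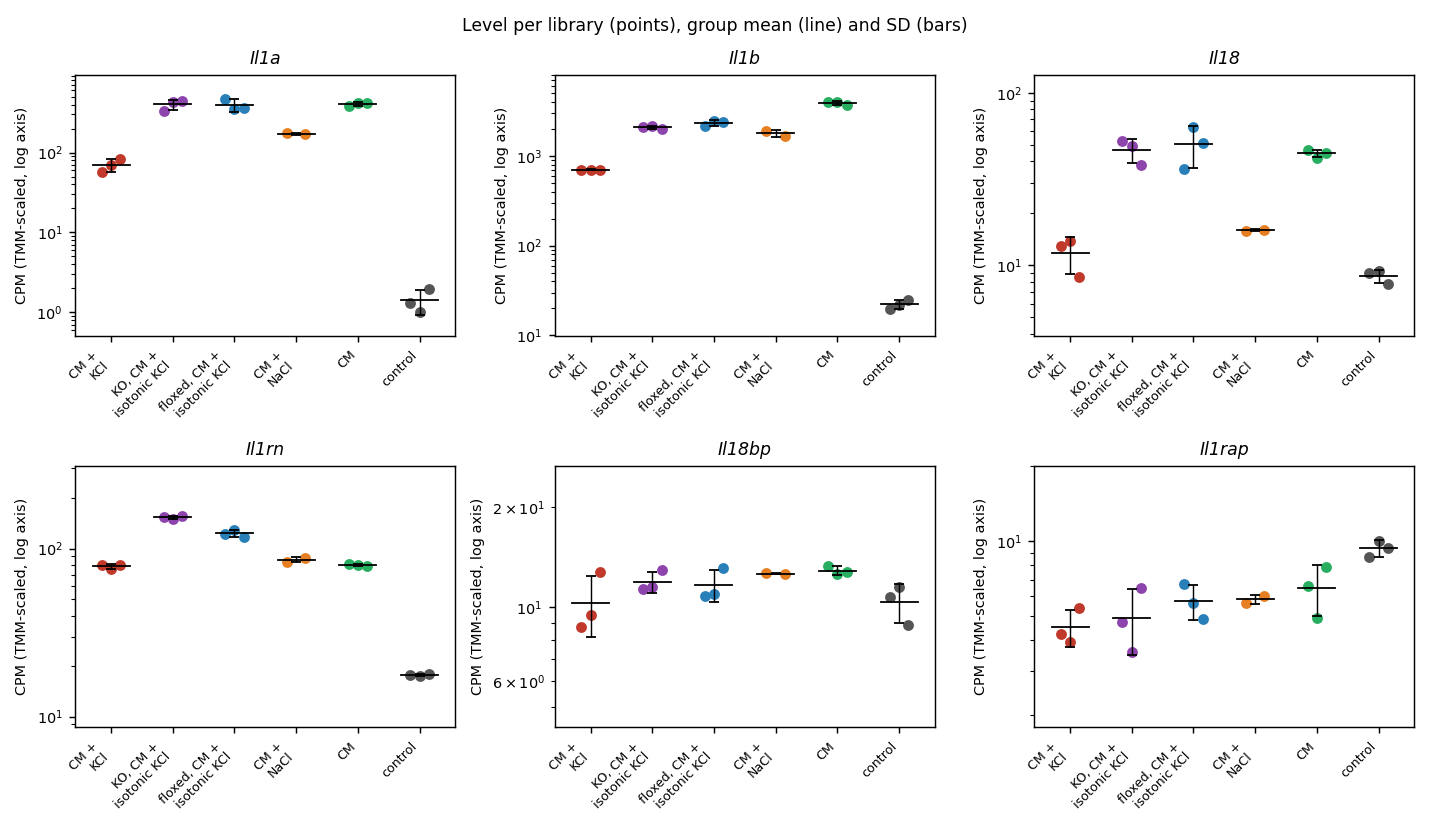
Level of each of the 6 genes in every library (CPM, log axis), with 1 panel per gene, groups along the horizontal axis, points for libraries, horizontal lines for group means and bars for SD. Il1a and Il1b span over 100-fold between control and conditioned medium, Il1rn is highest in the knockout and floxed groups, and all Il18bp libraries lie between 8.73 and 13.3 CPM.

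Conditioned medium without added salt was compared with control. The labels do not say what the control cells were given or for how long. Tumour cell products therefore cannot be told apart from other differences in culture. Both interleukin-1 agonists rose from near absence, Il18 and Il1rn rose less, and Il1rap fell. Il1a, which encodes interleukin-1 alpha, had 382, 418 and 421 CPM in conditioned medium, against 1.29, 1.02 and 1.97 CPM in control (28, 24 and 48 counts). Every treated library stood far above every control library. The log2 fold change of Il1a was 8.14 ± 0.20 (SE; adjusted p = 2.34e-12), a 281-fold difference and the 9th largest increase among the 14519 genes tested. Il1b, which encodes interleukin-1 beta, had 4059, 3960 and 3679 CPM in conditioned medium, against 19.8, 21.8 and 24.7 CPM in control. Its log2 fold change was 7.45 ± 0.11 (SE; adjusted p = 1.82e-14), or 175-fold, and it ranked 14th. Per kilobase of exon, the level of Il1b was 2045 ± 104 CPM per kb in conditioned medium, about an order above that of Il1a (206 ± 10.8 CPM per kb).

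Il18 had 46.4, 42.1 and 45.1 CPM in conditioned medium, against 9.0, 9.25 and 7.85 CPM in control. The groups did not overlap, and Il18 rose by 2.35 ± 0.14 on the log2 scale (SE; adjusted p = 9.68e-09). Il1rn, the antagonist of both interleukin-1 forms, had 80.7, 79.9 and 78.5 CPM in conditioned medium, against 17.6, 17.4 and 18.0 CPM in control. Its log2 fold change was 2.17 ± 0.07 (SE; adjusted p = 2.26e-11), a 4.49-fold increase with almost no spread within either group. Il18bp had 13.3, 12.6 and 12.7 CPM in conditioned medium, against 10.7, 11.5 and 8.84 CPM in control. The difference of 0.31 ± 0.15 on the log2 scale did not pass the test (SE; adjusted p = 0.0916; 95% interval -0.01 to 0.62). It did with only these 2 groups fitted (adjusted p = 0.0227), or with each library's length slope, defined below, as covariate (adjusted p = 0.0459). Il1rap, the receptor chain, was the member that fell: it had 6.64, 4.92 and 7.92 CPM in conditioned medium, against 8.63, 10.1 and 9.41 CPM in control. Its log2 fold change was -0.53 ± 0.17 (SE; adjusted p = 0.0175), and the call was lost without control library 2 (-0.49, adjusted p = 0.0595) or without conditioned medium library 2 (-0.37, adjusted p = 0.0845).

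Of the 6 genes, 5 were called, 4 higher and 1 lower, where 53.5% of all genes tested were called (27.2% higher, 26.4% lower). Being called was therefore common in this comparison, and the sizes carry more than the count. The 4 that rose did so at least 2-fold, as did 9.57% of all genes tested. The median log2 fold change of the 6 genes was 2.26, against -0.04 over all genes. With scaling by total counts in place of TMM the median of all genes moved by -0.34, which was small beside the changes of Il1a, Il1b, Il18 and Il1rn but turned the uncalled Il18bp value to -0.03. Neutrophils are another source of Il1b. The 12 neutrophil markers summed to 166 to 181 CPM in conditioned medium, against 63.5 to 64.1 CPM in control. Of these markers Ly6g, Retnlg, Elane and Cxcr2 were at 0 in all conditioned medium libraries, and Csf3r alone reached up to 160 CPM among the 17 libraries. S100a8 (4.52 to 23.9 CPM), Mmp8 (3.67 to 8.10 CPM), Camp (0.382 to 5.64 CPM) and S100a9 (0.238 to 3.84 CPM) had counts in all 17. The 7 dendritic cell markers summed to 4.55 to 7.57 CPM in conditioned medium, with Siglech at 0, against 2.10 to 2.30 CPM in control. Of these 7, Xcr1 reached up to 21.0 CPM among the 17 libraries, and no other exceeded 3.51 CPM. The 6 fibroblast markers summed to 481 to 530 CPM, against 552 to 683 CPM in control. The part of such cells in the result was not tested. In bulk RNA, fewer cells of a type and less RNA per cell cannot be told apart.

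KCl in conditioned medium was compared with conditioned medium alone to see what added potassium did. The 3 agonists fell, the antagonists Il1rn and Il18bp did not pass the test, and Il1rap fell slightly. Il1a had 57.2, 70.8 and 83.8 CPM with KCl, against the 407 ± 21.4 CPM of conditioned medium alone (n = 3). Its log2 fold change was -2.54 ± 0.15 (SE; adjusted p = 3.11e-08), leaving 17.3% of the level without salt. Il1b had 704, 691 and 707 CPM with KCl, against 3899 ± 198 CPM in conditioned medium (n = 3), and all KCl libraries lay below all libraries without salt. Its log2 fold change was -2.49 ± 0.09 (SE; adjusted p = 3.06e-10), leaving 18.0%. Both stayed far above control, where Il1b averaged 22.1 ± 2.45 CPM and Il1a 1.43 ± 0.493 CPM (n = 3).

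Il18 had 12.9, 13.8 and 8.57 CPM with KCl, against 44.5 ± 2.17 CPM in conditioned medium (n = 3). It fell by 1.94 ± 0.14 on the log2 scale (SE; adjusted p = 2.19e-07). KCl library 3 lay within the control range (7.85 to 9.25 CPM), and KCl libraries 1 and 2 lay above it. Il1rn had 79.8, 75.7 and 79.6 CPM with KCl, against 79.7 ± 1.11 CPM in conditioned medium (n = 3). The log2 difference of -0.03 ± 0.07 did not pass the test (SE; adjusted p = 0.709), and its 95% interval, -0.18 to 0.12, lies far from the fall of Il1b. Il18bp had 8.73, 9.46 and 12.8 CPM with KCl, with a log2 difference of -0.33 ± 0.15 that did not pass (SE; adjusted p = 0.0840). KCl library 3 decided this value, since without it the difference was -0.52 (adjusted p = 0.00379). Il1rap had 4.23, 3.93 and 5.38 CPM with KCl, overlapping conditioned medium, and a log2 fold change of -0.52 ± 0.19 (SE; adjusted p = 0.0315). That call was lost when any of 4 libraries was left out (conditioned medium 1 or 3, KCl 1 or 2; adjusted p = 0.0728 to 0.150).

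Of the 6 genes, 4 were called and all 4 were lower with KCl, where 53.9% of genes were called (27.4% lower). The 3 agonists fell at least 2-fold, as did 10.9% of all genes tested. The median over the 6 genes was -1.23 on the log2 scale, against -0.01 over all genes. Scaling by total counts moved the median of all genes by -0.21 and brought Il1rn (-0.24, adjusted p = 0.0217) and Il18bp (-0.53, adjusted p = 0.0148) past the threshold as lower. The neutrophil markers summed to 44.6 to 52.4 CPM with KCl, against 166 to 181 CPM in conditioned medium. Over the 17 libraries Csf3r ran from 16.8 to 160 CPM, and no other of these markers exceeded 23.9 CPM. This holds for the same sum in the comparisons below. Retnlg and Elane were at 0 in all 3 KCl libraries, while S100a8, S100a9, Mmp8, Camp and Csf3r had counts in each. The part of the neutrophil markers in the fall was not tested. The 7 dendritic cell markers summed to 17.4 to 23.7 CPM with KCl, against 4.55 to 7.57 CPM in conditioned medium. Siglech was at 0 in both groups. Xcr1 alone reached up to 21.0 CPM among the 17 libraries, and no other of the 7 exceeded 3.51 CPM in any. The fibroblast markers summed to 285 to 452 CPM with KCl, against 481 to 530 CPM in conditioned medium, none of them at 0 throughout a group, and the part of both lists was not tested. Libraries with KCl also favoured genes of shorter exon length. The slope of a gene's deviation from its mean log2 level on its log2 exon length was -0.069, -0.092 and -0.0031 with KCl, against 0.037, 0.062 and 0.085 in conditioned medium. With that slope as a covariate, Il1a (-2.13), Il1b (-2.49) and Il18 (-2.48) were still called, and Il1rap, the longest of the 6 by exon length, was not (-0.14, adjusted p = 0.778).

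NaCl at the same concentration served as the comparison for the salt load. Il1a, Il1b and Il18 fell, with smaller log2 fold changes than with KCl. Il1a had 175 and 169 CPM with NaCl, against 407 ± 21.4 CPM in conditioned medium (n = 3), a log2 fold change of -1.24 ± 0.16 (SE; adjusted p = 8.84e-05). Il1b had 1912 and 1694 CPM with NaCl, against 3899 ± 198 CPM (n = 3), a log2 fold change of -1.11 ± 0.10 (SE; adjusted p = 3.40e-06). The levels left were 42.2% of that in conditioned medium for Il1a and 46.2% for Il1b. Il18 had 15.9 and 16.1 CPM, against 44.5 ± 2.17 CPM in conditioned medium (n = 3), and fell by 1.47 ± 0.16 on the log2 scale (SE; adjusted p = 1.95e-05).

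The antagonists and the receptor chain did not pass the test with NaCl. Il1rn had 83.8 and 88.3 CPM, with a log2 difference from conditioned medium of 0.12 ± 0.08 (SE; adjusted p = 0.287; 95% interval -0.05 to 0.28). Both NaCl libraries lay above all 3 of conditioned medium. So few libraries can separate without a difference, and the share of all genes that did so is not given here. Il18bp had 12.7 and 12.6 CPM (-0.02, adjusted p = 0.937), and Il1rap had 5.66 and 6.01 CPM (-0.15, adjusted p = 0.632). The 3 calls among 6 genes, all lower, stood beside 28.7% of all genes called (14.9% lower). All 3 fell at least 2-fold, as did 4.30% of all genes tested, and the median over the 6 genes was -0.63 against -0.01 over all genes. The neutrophil markers summed to 63.6 to 66.5 CPM with NaCl, against 166 to 181 CPM in conditioned medium. Ly6g, Retnlg, Elane, Mpo and Cxcr2 were at 0 in both NaCl libraries, while S100a8, S100a9, Mmp8, Camp and Csf3r had counts in each. The dendritic cell markers summed to 7.95 to 9.96 CPM with NaCl, against 4.55 to 7.57 CPM in conditioned medium. Cd209a and Siglech were at 0 in both NaCl libraries, while Xcr1, Zbtb46 and Ccr9 had counts in each. The part of both lists was not tested.

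Set directly against NaCl, KCl left lower levels of the 3 agonists. All 3 log2 fold changes kept their sign under every alternative run, and the call was kept throughout for Il1b and not for Il1a and Il18. Il1b averaged 701 ± 8.25 CPM with KCl (n = 3) and 1803 ± 154 CPM with NaCl (n = 2), a log2 fold change of -1.38 ± 0.09 (SE; adjusted p = 5.20e-06). Il1a averaged 70.6 ± 13.3 CPM with KCl (n = 3) and 172 ± 4.48 CPM with NaCl (n = 2), a log2 fold change of -1.30 ± 0.15 (SE; adjusted p = 4.01e-04). The Il1a call was lost with the length slope as covariate (-0.82, adjusted p = 0.0906) and with only these 5 libraries in the fit (-1.29, adjusted p = 0.0636). Il18 averaged 11.8 ± 2.81 CPM with KCl (n = 3) and 16.01 ± 0.179 CPM with NaCl (n = 2), a log2 fold change of -0.47 ± 0.16 close to the threshold (SE; adjusted p = 0.0417), and the call was lost without any of KCl 1, KCl 3, NaCl 1 or NaCl 2 (adjusted p = 0.0511 to 0.172). Over all alternatives the Il18 value ran from -1.11 with the length slope as covariate to -0.28 without KCl library 3. Il1rn (-0.15, adjusted p = 0.148; 95% interval -0.32 to 0.01), Il18bp (-0.30, adjusted p = 0.178) and Il1rap (-0.37, adjusted p = 0.186) did not pass, but Il18bp did without KCl library 3 (-0.50, adjusted p = 0.0114) and Il1rn with total-count scaling (-0.29, adjusted p = 0.0246). Of the 6 genes, 3 were called lower, beside 31.6% of all genes called (16.2% lower), and the 2 that fell at least 2-fold stood beside 2.62% of all genes. The count over all genes itself depended on the fit, with 4591 genes called here and 143 with the length slope as covariate. The neutrophil markers summed to 44.6 to 52.4 CPM with KCl, against 63.6 to 66.5 CPM with NaCl. Retnlg and Elane were at 0 in both groups, while S100a8, S100a9, Mmp8, Camp and Csf3r had counts in each library. The dendritic cell markers summed to 17.4 to 23.7 CPM with KCl, against 7.95 to 9.96 CPM with NaCl, and the fibroblast markers to 285 to 452 CPM with KCl, against 464 to 519 CPM with NaCl. The part of these lists was not tested.

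**Figure D3:**
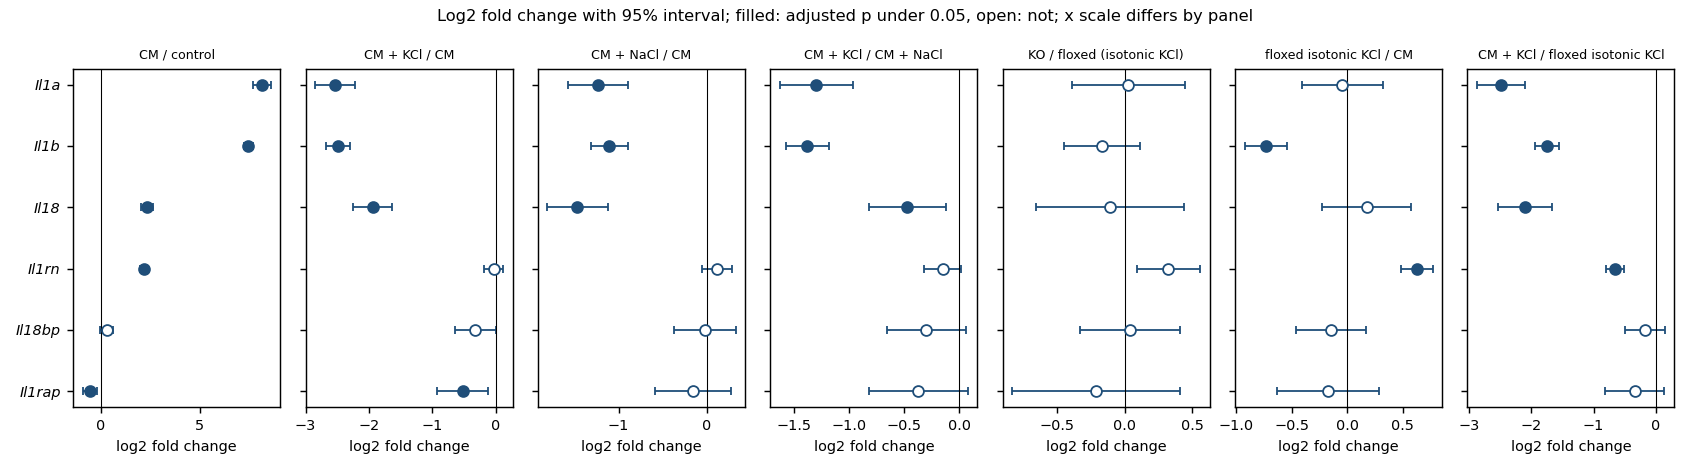
Log2 fold change of the 6 genes in each comparison (horizontal axis), with bars for 95% intervals, filled points for an adjusted p under 0.05 and open points otherwise. The horizontal scale differs by panel. Il1a, Il1b and Il18 lie left of 0 with both salts, the Il1rn interval holds 0 there, and the knockout comparison has open points only.

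The knockout was compared with floxed cells in the same isotonic medium to ask whether levels differed between the genotypes. No library of either genotype lacks this medium, so a response to it cannot be measured in either. None of the 6 genes passed the test, where 2 of 12782 genes did (0.0156% of all genes tested), Kcnj2 and Lyz1. At an unadjusted p under 0.05 there were 716 genes, and DESeq2 called 177. Il1rn was the member nearest a difference. It had 154, 151 and 155 CPM in knockout cells, against 122, 129 and 118 CPM in floxed cells, so that every knockout library lay above every floxed one. Its log2 difference was 0.32 ± 0.10 (SE; unadjusted p = 0.0138 by edgeR; adjusted p = 0.525; 95% interval 0.09 to 0.56). Fitted with all 17 libraries, which share one estimate of the spread, Il1rn was called (0.32, adjusted p = 0.0196).

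Il1b had 2111, 2159 and 1981 CPM in knockout cells, against 2166, 2448 and 2423 CPM in floxed cells, also without overlap, as for 11.2% of all genes tested. Its log2 difference was -0.17 ± 0.12 (SE; adjusted p = 1.00; 95% interval -0.45 to 0.12), an interval that holds both a fall and a small rise. Il1a had 331, 429 and 442 CPM in knockout cells, against 475, 351 and 359 CPM in floxed cells. The 2 groups overlapped and the log2 difference was 0.03 (95% interval -0.39 to 0.44). Il18 had 52.7, 49.1 and 38.3 CPM in knockout cells, against 36.1, 63.7 and 51.2 CPM in floxed cells (-0.10; 95% interval -0.65 to 0.44). Il18bp (11.3, 11.5 and 12.9 CPM in knockout, against 10.8, 10.98 and 13.1 CPM in floxed cells) and Il1rap (4.74, 3.59 and 6.49 CPM, against 6.72, 5.64 and 4.86 CPM) also overlapped. The spread within these groups ran with exon length: the slope was -0.13, -0.12 and -0.023 in knockout libraries, against 0.10, -0.15 and -0.081 in floxed libraries. With the slope as covariate, Il1rn was called higher (0.32, adjusted p = 0.00108), and Il1b (-0.21, adjusted p = 0.00849) and Il18 (-0.25, adjusted p = 0.0434) were called lower in knockout cells, while 1307 genes were called in all. The fibroblast markers summed to 166 to 229 CPM in knockout cells, against 237 to 479 CPM in floxed cells. The B cell markers summed to 38.4 to 44.1 CPM in knockout cells, against 20.6 to 23.4 CPM in floxed cells. Among these markers Ighm ran from 20.2 to 44.1 CPM over all libraries, and no other exceeded 0.723 CPM. The part of both lists in the values of the 6 genes was not tested.

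The floxed cells in isotonic KCl can be set beside the C57BL/6J groups only with strain and salt changing together, so that these cannot be told apart. Against conditioned medium alone, Il1b was lower and Il1rn higher in floxed cells, and Il1a showed no difference that passed. Il1b averaged 2346 ± 156 CPM in floxed cells (n = 3) and 3899 ± 198 CPM in conditioned medium (n = 3), a log2 fold change of -0.73 ± 0.09 (SE; adjusted p = 8.03e-05). Il1rn averaged 123 ± 5.62 CPM in floxed cells (n = 3) and 79.7 ± 1.11 CPM in conditioned medium (n = 3), a log2 fold change of 0.63 ± 0.07 (SE; adjusted p = 2.29e-05). Il1a (-0.04; 95% interval -0.41 to 0.32), Il18 (0.18; -0.23 to 0.58), Il18bp (-0.15) and Il1rap (-0.18) did not pass. The 2 calls among 6 genes stood beside 15.3% of all genes (8.20% higher, 7.09% lower).

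Against the same floxed cells, KCl without the isotonic label left lower agonist levels in C57BL/6J cells. Il1a averaged 70.6 ± 13.3 CPM with KCl (n = 3) and 395 ± 69.3 CPM in floxed cells (n = 3), a log2 fold change of -2.48 ± 0.18 (SE; adjusted p = 1.56e-07). Il1b fell by 1.74 ± 0.09 on the log2 scale (SE; adjusted p = 6.83e-09), Il18 by 2.10 ± 0.20 (SE; adjusted p = 2.27e-06) and Il1rn by 0.65 ± 0.07 (SE; adjusted p = 4.35e-06). Il18bp (-0.17) and Il1rap (-0.34) did not pass. Of the 6 genes, 4 were called lower, beside 27.8% of all genes called (15.4% lower), and 3 fell at least 2-fold, as did 5.22% of all genes. The neutrophil markers summed to 44.6 to 52.4 CPM with KCl, against 118 to 174 CPM in floxed cells. Retnlg, Elane and Mpo were at 0 in all 3 floxed libraries, while S100a8, S100a9, Mmp8, Camp and Csf3r had counts in each. The dendritic cell markers summed to 17.4 to 23.7 CPM with KCl, against 6.97 to 8.35 CPM in floxed cells, and the part of both lists was not tested.

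Each gene had its own order of levels over the 6 groups. Il1a formed an upper set of conditioned medium, knockout and floxed cells whose neighbours overlapped, followed by NaCl, KCl and control with gaps between each. Il1b libraries did not overlap between any 2 groups, in the order conditioned medium, floxed, knockout, NaCl, KCl and control. The lowest floxed library (2166 CPM) and the highest knockout library (2159 CPM) were nearly level. That difference between genotypes did not pass the test, and 11.2% of all genes tested separated these groups. Il1rn ran knockout, floxed, NaCl, conditioned medium, KCl and control, and of these only conditioned medium and KCl overlapped. In the main fits, Il1rn did not pass between knockout and floxed cells or between NaCl and conditioned medium. For Il18 the upper set was floxed, knockout and conditioned medium, then came NaCl, and KCl overlapped control at the low end through KCl library 3 alone. Il18bp had no gap between any neighbours and its highest group mean was 1.25-fold its lowest. For Il1rap control stood alone at the top (9.37 ± 0.710 CPM, n = 3) and the other 5 groups overlapped in a chain.

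The balance of antagonist to agonist transcripts was taken within each library, where it does not depend on scaling between libraries. For each 100 Il1a plus Il1b counts, there were 10.5, 9.93 and 10.1 Il1rn counts with KCl, 6.31, 5.82 and 6.42 in knockout cells, 4.63, 4.61 and 4.23 in floxed cells, 4.02 and 4.74 with NaCl, 1.82, 1.83 and 1.91 in conditioned medium, and 83.3, 76.2 and 67.3 in control. Control was thus highest and conditioned medium lowest, and of the groups next to each other in that order only floxed and NaCl overlapped. Il1rn has the longer exons, so that per kilobase the same ratio averaged 3.51 with KCl, 0.640 in conditioned medium and 26.1 in control. The corresponding balance for interleukin-18 was 67.7, 68.4 and 149 Il18bp counts for each 100 Il18 counts with KCl, 79.9 and 78.0 with NaCl, 28.7, 29.9 and 28.3 in conditioned medium, and 119, 125 and 113 in control. KCl library 3, which had the lowest Il18 level of its group, set the width of its group, and the KCl and control libraries overlapped. Knockout (21.5, 23.5 and 33.7) and floxed cells (30.0, 17.2 and 25.7) overlapped conditioned medium.

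**Figure D4:**
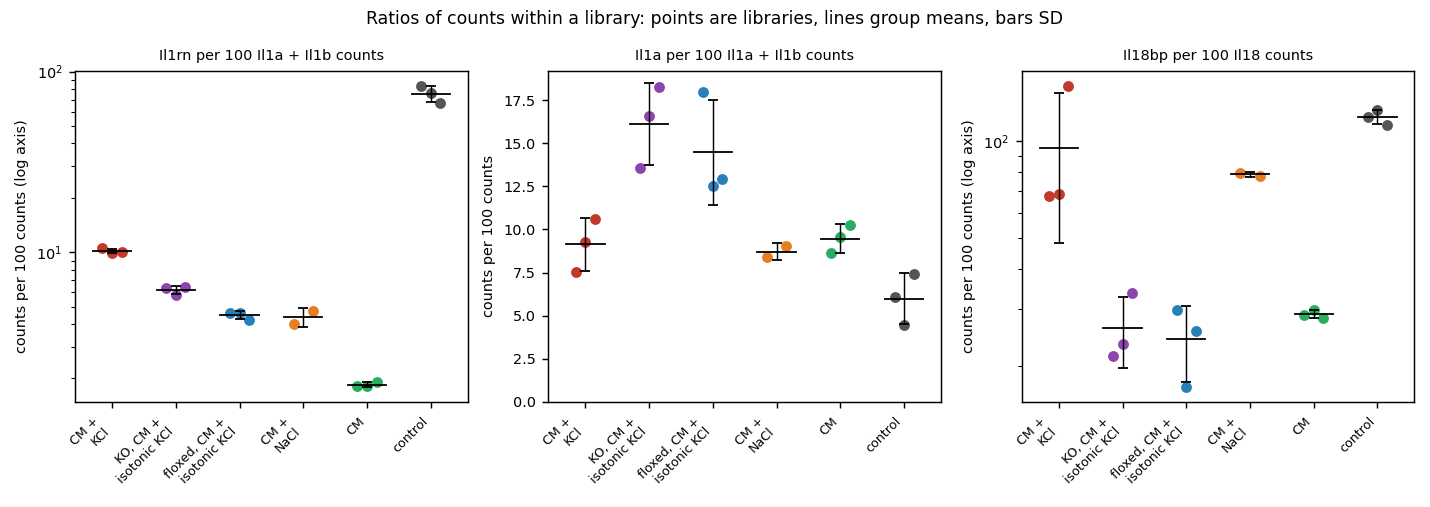
Il1rn counts for each 100 Il1a plus Il1b counts (left), Il1a counts for each 100 Il1a plus Il1b counts (middle) and Il18bp counts for each 100 Il18 counts (right) in every library, with log axes left and right, points for libraries, lines for group means and bars for SD. The left panel separates conditioned medium (1.82 to 1.91) from KCl (9.93 to 10.5), and in the right panel the KCl libraries reach from 67.7 to 149.

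The mixture of the 2 agonists also differed between the isotonic and the C57BL/6J libraries. Il1a made up 13.6%, 16.6% and 18.3% of Il1a plus Il1b counts in knockout cells and 18.0%, 12.5% and 12.9% in floxed cells, against 7.52% to 10.6% over the 8 libraries of conditioned medium with or without salt and 4.46% to 7.40% in control. All isotonic libraries thus lay above all C57BL/6J libraries, a pattern chosen after the values were seen, and strain and isotonic salt cannot be told apart in it.

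Other ligands and receptors of the family were mostly scarce. Of 6 further ligands, 4 were matched in the annotation and only Il36g, an interleukin-36 agonist, had counts enough to be tested. It averaged 15.3 ± 1.498 CPM in conditioned medium and 0.354 ± 0.114 CPM in control (n = 3 each), a log2 fold change of 5.38. In contrast to Il1a and Il1b, Il36g was higher with each salt than without, at 21.8 ± 0.915 CPM with KCl (n = 3; log2 fold change 0.50, adjusted p = 0.00201) and 37.7 ± 2.19 CPM with NaCl (n = 2; 1.304). It was lower with KCl than with NaCl (-0.80), higher in floxed cells than in conditioned medium (0.75), and did not pass in the other 2 comparisons (-0.30 in knockout against floxed, -0.24 in KCl against floxed).

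Of 9 receptors, 5 were tested in the C57BL/6J libraries. In conditioned medium against control, where 53.5% of all genes tested were called, 1 rose and 3 fell. Il1rl2, the receptor of interleukin-36, rose (1.36), and Il1rl1, which encodes the interleukin-33 receptor ST2 (-0.50), Il18rap, the accessory chain of the interleukin-18 receptor (-2.12), and Sigirr, an inhibitory receptor of the family, fell, while Il1r1 did not pass (0.33). Il18rap averaged 0.344 ± 0.151 CPM in conditioned medium and 1.51 ± 0.209 CPM in control (n = 3 each). Since 3 counts are worth 0.175 to 0.190 CPM in the conditioned medium libraries, its fold rests on few counts there. Sigirr averaged 0.123 CPM in conditioned medium and 0.893 CPM in control (n = 3 each). Its mean in conditioned medium lay below the worth of 3 counts, so no fold is given for Sigirr. Il1rl2 was lower with KCl (-1.51) and NaCl (-1.01) than in conditioned medium, and Il18rap, averaging under 1 CPM in both groups, was higher with KCl (1.12, adjusted p = 0.0459). Il1r1, the signalling receptor of interleukin-1, was lower with KCl than with NaCl (-0.59, adjusted p = 0.0228) and did not pass against conditioned medium with either salt (-0.19 with KCl, 0.40 with NaCl). In knockout against floxed cells 3 receptors were tested and none was called, with Il1rl1 nearest (12.7 ± 0.420 CPM against 24.9 ± 1.43 CPM, n = 3 each; -0.97, adjusted p = 0.0866). Il1rl1 was higher in floxed cells than in conditioned medium (0.80), and with KCl both Il1rl1 (-0.80) and Il1rl2 (-1.38) were lower than in floxed cells.

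The signalling chain below the receptor was followed with 18 genes. Counts of the lists here and below are with TMM scaling, and scaling by total counts moved the median of all genes by -0.34 in conditioned medium against control, -0.21 in KCl against conditioned medium, -0.17 in floxed against conditioned medium and -0.14 in KCl against NaCl. List genes called with changes of about that size, such as Map3k7 (0.31), Traf6 (0.36) and Nek7 (0.28) in conditioned medium against control, chosen after their values were seen, lie within or near that shift. Over all genes tested, 53.5% were called in conditioned medium against control, 53.9% in KCl and 28.7% in NaCl against conditioned medium, 31.6% in KCl against NaCl, 15.3% in floxed cells against conditioned medium and 27.8% in KCl against floxed cells, and list counts near these shares say little of a list. In conditioned medium against control 13 rose and 1 fell, and the kinase Irak2 (2.39), the inhibitory kinase homologue Irak3 (3.27) and the kinase Map3k8 (1.27) had the smallest p. With KCl against conditioned medium 5 rose and 7 fell, not far from the 53.9% of all genes called, with Irak3 (-1.31) and the IKK subunit Ikbkg (-0.82) lower and the adaptor Tab2 (0.92) higher. NaCl gave 3 higher and 5 lower, among them Traf6 (0.59), Tab2 (0.73) and Tab1 (-0.73). Between KCl and NaCl 1 rose and 3 fell (Tollip 0.47, Irak3 -0.95, Ikbkg -0.52). In floxed cells against conditioned medium 3 rose (Tollip 0.53, Tab2 0.32, Map3k8 0.34), and with KCl against floxed cells 2 rose and 6 fell (Tab2 0.62, Irak3 -1.13, Ikbkg -0.96).

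All 11 NF-kB subunits and inhibitors rose in conditioned medium against control, with a median log2 fold change of 1.89 against -0.04 over all genes. The inhibitor Nfkbia averaged 920 ± 23.0 CPM in conditioned medium and 94.8 ± 4.495 CPM in control (n = 3 each; 3.27), and Nfkbiz (4.03), a nuclear NF-kB cofactor, and Tnfaip3 (4.33), a ubiquitin-editing inhibitor, rose further. With KCl against conditioned medium, where 53.9% of all genes were called and 27.4% were lower, 3 rose and 7 fell, with a median of -0.36, and the NF-kB inhibitor Nfkbie (-0.90), the cofactor Bcl3 (-1.05) and the inhibitor Nfkbib (0.64) had the smallest p. NaCl gave 3 higher and 3 lower, beside 28.7% of all genes called (Nfkb1 0.44, Nfkbib 0.46, Bcl3 -0.70). Between KCl and NaCl 3 were lower (Nfkb2 -0.29, Nfkbie -0.72, Tnfaip3 -0.54), beside 16.2% of all genes. In floxed cells against conditioned medium 1 was higher and 1 lower (Nfkbib 0.34, Bcl3 -0.55), beside 15.3% of all genes called. With KCl against floxed cells 1 was higher and 3 lower (Nfkbib 0.31, Nfkb2 -0.44, Nfkbie -0.55), beside 27.8%.

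Processing and release was followed with 16 genes, of which 7 rose and 5 fell in conditioned medium against control, where 53.5% of all genes were called. Nlrp3, the inflammasome sensor that responds to potassium loss, rose (233 ± 13.2 CPM in conditioned medium and 19.9 ± 1.11 CPM in control, n = 3 each; 3.54), as did Casp4, which encodes the caspase-11 of mice (2.10), and Ninj1, which acts in membrane rupture (1.53). With KCl 4 were higher and 11 lower than in conditioned medium, with a median of -0.65 against -0.01 over all genes and beside 53.9% of all genes called (27.4% lower). Casp4 (1.29) and Ninj1 (0.71) were higher, and Txnip, a thioredoxin-binding protein, was lower (-0.95). Nlrp3 was also lower with KCl (98.3 ± 30.9 CPM, n = 3; -1.25) and did not pass with NaCl against conditioned medium (0.09). NaCl gave 4 higher and 5 lower, beside 28.7% of all genes called, among them Casp4 (0.85), Txnip (-1.04) and Pycard, the inflammasome adaptor (-1.29). Between KCl and NaCl 2 rose and 5 fell, beside 31.6%, with Nlrp3 (-1.35) and Casp8 (-1.03) lower and Casp4 higher (0.44). In floxed cells against conditioned medium 4 rose and 3 fell, beside 15.3%, with Casp1 (0.41) and Casp4 (0.98) higher and the calpain Capn2 lower (-0.90). With KCl against floxed cells 1 rose and 6 fell, beside 27.8%, among them Gsdmd, the pore-forming gasdermin (-0.78), Capn1 (-0.45) and Txnip (-0.88).

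Of 8 genes that act on the decay or stability of inflammatory transcripts, 5 rose and 2 fell in conditioned medium against control, beside 53.5% of all genes called. Zfp36, whose product binds AU-rich elements, rose (1.16), and its relatives Zfp36l1 (-2.47) and Zfp36l2 (-1.57) fell. With KCl 3 were higher and 4 lower than in conditioned medium, beside 53.9% of all genes called: Rc3h1 (1.78) and Rc3h2 (0.88), which encode the roquin proteins, were higher and Zfp36 was lower (-0.95). NaCl gave 3 higher and 2 lower (Rc3h1 1.05, Zfp36 -0.75, Zfp36l2 -0.62; 28.7% of all genes called), and KCl against NaCl likewise 3 and 2 (31.6%; Rc3h1 0.73, Rc3h2 0.47, Elavl1 0.47). In floxed cells against conditioned medium 1 rose and 2 fell (15.3% of all genes called; Rc3h1 0.48, Zfp36 -0.48, Zfp36l1 -0.89), and with KCl against floxed cells 3 rose and 1 fell (27.8%; Rc3h1 1.31, Rc3h2 0.71, Zfp36 -0.46). In knockout against floxed cells no gene of these lists was called.

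Among 8744 genes with a level of at least 10 CPM in some group, those whose log2 level followed each member most closely over the 17 libraries were found by Pearson's r. The libraries share groups, so r describes the group pattern. Il1a was followed by Cdc42ep2 (0.997), Hcar2 (0.995) and Fpr2 (0.994), and Il1b by Socs3 (0.997), Shisa3 (0.996) and Fpr2 (0.994). Il1rn was followed by Gbp3 (0.996), Osgin2 (0.993) and Slamf8 (0.992), and Il18 by Sgk3 (0.987), Tsc22d1 (0.976) and Adora2b (0.975). For Il1rap (Cdk5rap2 0.910, Eif2ak3 0.897, Cad 0.893) and Il18bp (Nop58 0.781, Egln1 0.760, Srprb 0.758) the closest genes were less alike. Among the members, r was 0.989 for Il1a with Il1b and 0.950 for Il1a with Il1rn, 0.816 for Il1a with Il18, and -0.715 for Il1rn with Il1rap. These values include control, where Il1a, Il1b, Il1rn and Il18 all had their lowest mean. Between conditioned medium and KCl, Il1a averaged 407 and 70.6 CPM, while Il1rn averaged 79.7 and 78.4 CPM. An r without control was not computed.

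Exons of 4 of the genes overlap a gene on the opposite strand, and whether counting used strand is not given in the sources used here. Il1a shares 222 bases of its exons with Gm14023 and Il1b shares 25 with Il1bos, and neither partner exceeded 1.37 CPM in any library. Il18bp shares 80 of its 3026 exonic bases with Numa1, which had 35.5 to 122 CPM and thus more counts than Il18bp itself. Il1rap shares 552 bases with Gm20319, which had no count in any library, below 3 counts in each.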

How the data were processed

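The authors sequenced total RNA of 17 libraries and deposited raw gene counts under Ensembl identifiers, with 1 column per library matched to a sample title. How reads were aligned and counted, with which strand setting and on which genome build, is not given in the sources used here. Per the submitters' processing notes, DESeq2 1.30.1 was among the tools, with no role stated. The 260 identifiers without a symbol in GENCODE M21 held 0.0121% of counts and were kept. Groups came from the strain and treatment labels.

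Tests on these counts used edgeR's quasi-likelihood fit, version 4.0.16 (R 4.3.3; robust, TMM, default low-count filter, Benjamini-Hochberg over all genes tested, threshold 0.05, 2-sided). The 11 C57BL/6J libraries gave the first 4 comparisons (14519 genes), the 6 isotonic libraries the knockout comparison (12782 genes) and all 17 the cross-strain comparisons (14676 genes). SE is the log2 fold change over the root of F, and intervals are 95%. All 6 genes passed the filter in each fit. Shared controls link the comparisons. No label ties replicates to separate animals or cultures, and p-values thus reflect the spread between samples here, possibly a technical one. No replicate pair agreed within sampling noise. A count of 0 allows up to 3 counts, and such limits cover counting error only.

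The members and gene lists were chosen with earlier results of these data known. The text names all 6 members, each tested ligand and receptor, the up to 3 called genes of smallest p of each other list, the 3 genes of closest pattern, and Kcnj2. Lyz1, and Nlrp3 with either salt against conditioned medium, were named after their values were seen. The first comparison of each fit was run on simulated counts that gave every gene the same spread and held no length slope. The replicates here did have length slopes, so that run cannot vouch for the fits in this respect. Alternatives were DESeq2 1.42.0, other scalings and filters, fewer or more libraries, a replicate block, a length covariate and leaving out each replicate.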

Additional observations from a re-analysis of the deposited data

How the results depend on the processing

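Of 21 calls among the 6 genes, 17 kept direction and call under every alternative run. The 4 that did not (Il1rap in conditioned medium against control and in KCl against conditioned medium, Il1a and Il18 in KCl against NaCl) are given with their values above, and 2 of these also missed the threshold elsewhere. Il18 in KCl against NaCl did so with RLE scaling (adjusted p = 0.0530), only those groups (0.183) and all 17 libraries (0.166), and Il1rap in KCl against conditioned medium with only those groups (0.0766) and all 17 libraries (0.0686). Leaving out a NaCl replicate leaves 1, assumed to vary like the other groups. Over all fold changes of the 6 genes, 335 values under other settings kept sign and call, 9 gained a call, 8 lost one and 8 changed sign. With a replicate left out these were 214, 2, 10 and 14. The cause of the changes was not tested. Uncalled log2 differences that changed sign were, with total-count scaling, Il18bp in conditioned medium against control (-0.029), Il1a in knockout against floxed (-0.0010) and Il18 in floxed against conditioned medium (-0.014). With the length covariate they were Il1rn in KCl against conditioned medium (0.043), Il1rap in KCl against NaCl (0.074), and Il1a (0.17), Il18 (-0.22) and Il1rap (0.050) in floxed against conditioned medium. With a replicate left out, NaCl against conditioned medium gave -0.038 to 0.0024 for Il18bp and -0.31 to 0.020 for Il1rap, knockout against floxed gave -0.064 to 0.17 for Il1a, -0.30 to 0.10 for Il18 and -0.037 to 0.15 for Il18bp, and floxed against conditioned medium gave -0.20 to 0.044 for Il1a and -0.019 to 0.37 for Il18.

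Members called moved to 1 in KCl against NaCl with only those groups fitted, and in knockout against floxed to 3 with the length covariate and 1 with all 17 libraries. All genes called in KCl against conditioned medium (7830) became 4390 with the length covariate. In KCl against NaCl (4591) they became 143 with the length covariate, 8 with only those groups, 1299 with all 17 libraries and 960 to 6989 with a replicate left out. In NaCl against conditioned medium (4161) they became 6245 with only those groups and 2224 to 3465 with a replicate left out. In knockout against floxed (2) they became 177 with DESeq2, 12 without the low-count filter, 1307 with the length covariate, 272 with all 17 libraries and 0 to 14 with a replicate left out. In floxed against conditioned medium (2245) they became 411 with only those groups and 1081 to 5589 with a replicate left out, and in KCl against floxed (4076) 6531 with the length covariate and 1218 with only those groups. Per kilobase, Il1rn for each 100 Il1a plus Il1b averaged 3.51 with KCl, 2.14 in knockout, 1.56 in floxed, 1.51 with NaCl, 0.640 in conditioned medium and 26.1 in control. Il18bp for each 100 Il18 averaged 32.4, 8.94, 8.28, 26.9, 9.88 and 40.5 in the same groups.

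No label says that libraries with the same replicate number belong together. Residuals correlated above 0.1 in 4 of 15 same-numbered C57BL/6J pairs, against 0 of 30 pairs with different numbers. In the isotonic set this was so for 1 of 3 same-numbered and 3 of 6 other pairs. Whether same-numbered C57BL/6J libraries share a culture or batch was not tested, and the main fits used no pairing. With a replicate block the members called stayed at 5, 4, 3, 3, 0, 2 and 4 in the 7 comparisons, and all genes called were 8121, 8166, 4712, 5811, 0, 2285 and 4000, in the order conditioned medium, KCl, NaCl, KCl against NaCl, knockout, floxed and KCl against floxed. Low counts limit Il1a in control (24 to 48 counts a library) and Il18bp and Il1rap in every group, and NaCl has 2 libraries.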
